A study of Arabidopsis thaliana with 24 samples.

Results

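The proteins of the small subunit of the cytosolic ribosome in Arabidopsis thaliana are encoded by families of near-identical paralogues. Here 60 such loci in 24 protein families were listed by locus, and each probe that the platform annotation pairs with one of them was taken. A probe was found for 41 loci, 1 probe each, and 39 loci in 21 families had values on all 24 arrays, among 10607 genes tested. The other 19 listed loci, among them all those of the Sa, S5 and S6 families, had no probe paired with them and were not analysed here. The assignment of loci to families follows the common nomenclature of Arabidopsis ribosomal proteins. Coverage was uneven: of the 16 listed loci to which the gene table gives a symbol of their own 1 had a probe (AT1G58380, XW6), and of the 44 without one 40 had. The tested loci are thus no even sample of the 60, and gene IDs, symbols and synonyms led to a probe for 0 of the other 19.

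All tissue came from 35S:AP1-GR ap1 cal plants, which lack the floral regulators AP1 and CAL and carry an AP1 and glucocorticoid receptor fusion behind the 35S promoter, a viral promoter active in most plant cells. Inflorescences were treated with 1 µM dexamethasone, which activates the fusion protein, and tissue near the inflorescence surface was pooled from about 25 plants per time point on days 0, 1, 2, 3, 4 and 5, in 4 independent sets. No untreated or wild-type plants are among these samples, so all 6 groups share the genotype and differ in the day alone. On each array decapped mRNA, which has lost its 5′ cap, and total polyadenylated mRNA of the same tissue were hybridised together, and each day had 2 arrays with decapped mRNA in the dye Cy3 and 2 with it in Cy5. The values are ratios on a log scale, probably base 2, with decapped mRNA probably in the numerator. Scale, direction and centring are not stated, and if the ratio runs the other way each "lower" below reads "higher". A ratio carries no RNA level, so tissue markers could not be checked, and fewer cells of a type and less RNA per cell cannot be told apart.

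As background, removal of the cap commits an mRNA to decay from its 5′ end by an exonuclease, while the cap protects an mRNA under translation. The ribosome's small subunit binds the mRNA and reads its codons. Its proteins are needed in equal amounts, their genes are among the most strongly expressed in dividing tissue, and their transcripts are short. In Arabidopsis most of these proteins are made from several loci at once.

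Most small subunit genes had less signal from decapped mRNA than from total mRNA. Over the 6 days 24 of the 39 loci were lower than 0 (61.5%), 7 were higher (17.9%) and 8 did not pass (limma, two-sided, Benjamini-Hochberg adjusted p under 0.05 over all genes). Among all genes tested 43.5% were lower and 29.7% higher. The median of the 39 mean ratios was -1.08, with quartiles of -2.95 and 0.11, against -0.16, with quartiles of -0.96 and 0.42, for all genes. The members spread out to the low side: 15 of 39 had a mean below -2, against 7.12% of all genes, and 7 stood among the 100 lowest genes of the array. On every array taken singly, between 18 and 39 of the 39 members lay below 0. The median of all genes ran from -0.56 to 0.19 over the arrays. Of the 39, 13 lay below 0 on all 24 arrays, against 12.4% of all genes, and 0 lay above 0 on all 24. The share of all genes above 0 on all 24 was not counted.

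**Figure D1:**
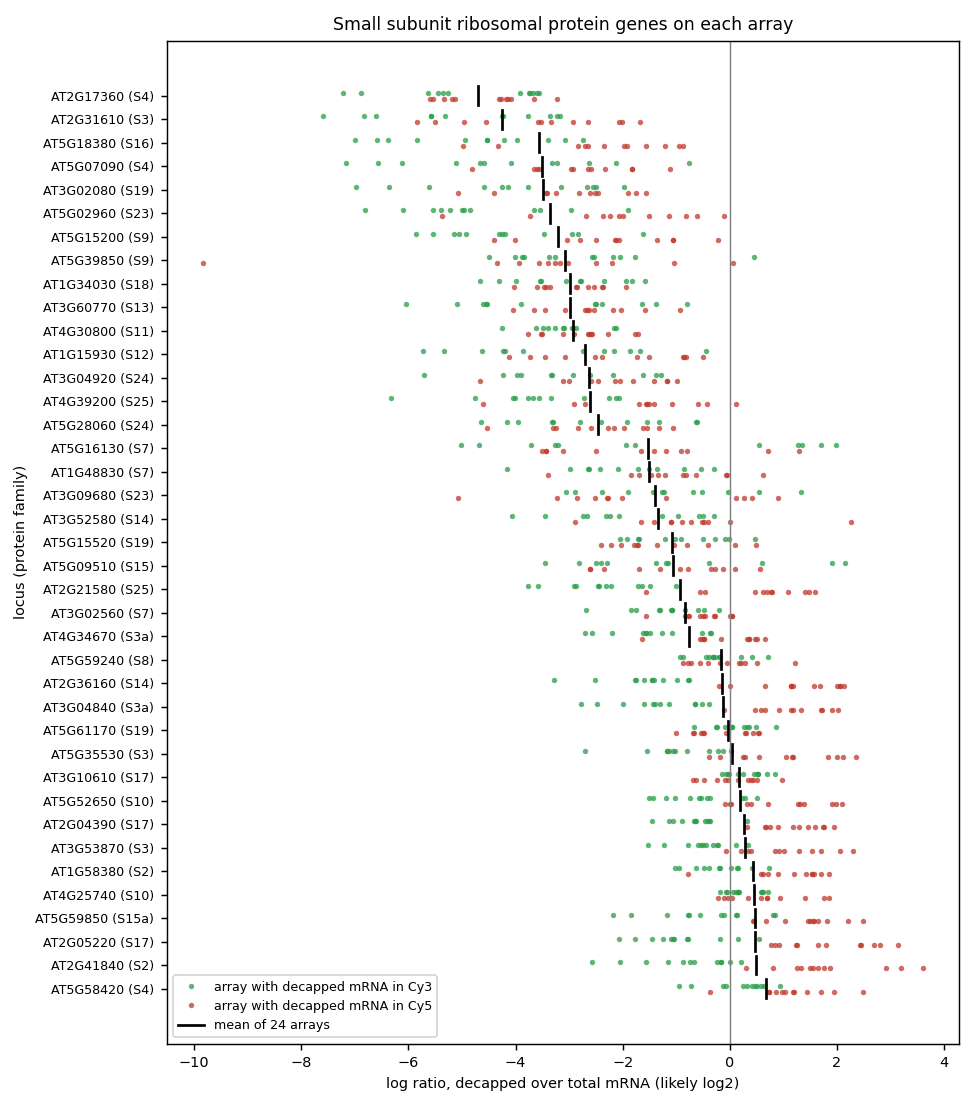
Log ratio (x axis, likely log2 of decapped over total mRNA) of each of the 39 small subunit loci (y axis, ordered by mean) on each of 24 arrays, green for arrays with decapped mRNA in Cy3 and red for Cy5, with a black bar at the mean. The 15 loci at the top have means below -2, and near the bottom green and red points separate to either side of 0.

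The order of the means showed a gap. The 15 lowest loci ran from -4.70 to -2.46, the next locus stood at -1.53, and 9 loci lay between that value and -0.77. The last 15 loci, between -0.16 and 0.67, held all 7 that were called higher and all 8 that did not pass. The lower calls had adjusted p-values from 3.09e-13 to 0.00439 (limma). That fit takes the 24 arrays as independent, although they come from 4 sets. Deviations from day means correlated within sets, with a median r of 0.28. All 15 members below -2 were lower whichever single set was left out, and 14 of them were lower on each of the 6 days. These fits reuse arrays from which the 15 were picked, so they are no independent check. How many other genes below -2 do the same was not counted.

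The lowest locus, AT2G17360, encodes S4, a protein of the subunit's body. It had its lowest array at -7.23, a median of -4.29 and its highest array at -3.23. Its mean was -4.70 ± 1.07 (SD, n = 24 arrays from 4 sets, adjusted p = 4.3e-13, limma), the rank 4 from the lowest of all 10607 genes. Its arrays lay below 0 without exception. AT2G31610, which encodes S3, a protein at the mRNA entry channel, ran from -7.60 over a median of -3.998 to -1.67 (mean -4.26 ± 1.60, adjusted p = 1.1e-10, rank 12). AT5G18380, which encodes S16, a protein of the subunit's head, ran from -7.002 over -3.24 to -0.88 (mean -3.57 ± 1.80, rank 36). These 3 loci were below 0 on 24 of 24 arrays, yet their SDs, like those of most members (median 1.29), were above the median SD of 0.69 for all genes.

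AT5G07090, a further S4 locus, ran from -7.16 over -3.27 to -0.77 (mean -3.51 ± 1.64). AT3G02080, which encodes S19, a head protein needed in yeast for maturation of the subunit, ran from -6.98 over -3.20 to -1.57 (mean -3.49 ± 1.44). AT5G02960 encodes S23, a protein of the decoding centre, and ran from -6.81 over -3.25 to -0.11 (mean -3.36 ± 1.92). All 3 were below 0 on every array and were called lower on each of the 6 days.

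Both loci for S9, a protein at the mRNA entry channel, were low. AT5G15200 ran from -5.87 over -3.00 to -0.23 (mean -3.21 ± 1.57), and AT5G39850 from -9.84 over -3.22 to 0.46 (mean -3.07 ± 1.92). The value of -9.84 was the lowest of any member, and AT5G39850 was above 0 on 2 arrays and did not pass on day 0 (-2.30 ± 1.85, n = 4, adjusted p = 0.0584, limma). With set number as a block it passed on that day (adjusted p = 0.0415), but a block takes differences between sets out of the error. AT1G34030, which encodes S18, a head protein, ran from -4.66 over -2.87 to -1.58 (mean -2.99 ± 0.81), and AT3G60770, which encodes S13, from -6.05 over -2.65 to -0.81 (mean -2.98 ± 1.35).

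AT4G30800, an S11 locus, had the steadiest low ratio, with a lowest array of -4.26, a median of -2.94 and a highest array of -1.72 (mean -2.93 ± 0.63, adjusted p = 3.09e-13). The other 4 members below -2 were AT1G15930 for S12 (-2.70 ± 1.54), AT3G04920 and AT5G28060 for S24 (-2.63 ± 1.24 and -2.46 ± 1.17) and AT4G39200 for S25 (-2.61 ± 1.55). All were lower on each day, and of these 4 only AT4G39200 rose above 0 on an array, on 1 of 24.

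The 9 loci called lower with means between -1.53 and -0.77 were less even. All 3 loci of S7 were among them, AT5G16130 at -1.53 ± 2.13, AT1G48830 at -1.50 ± 1.14 and AT3G02560 at -0.84 ± 0.67. AT5G16130 was above 0 on 7 arrays, was called on no single day, and did not pass without set 4 (-0.80, adjusted p = 0.147) or from set means (adjusted p = 0.064, limma, n = 4). The others were AT3G09680 for S23 (-1.39 ± 1.57), AT3G52580 for S14 (-1.34 ± 1.33), AT5G15520 for S19 (-1.08 ± 0.88), AT5G09510 for S15 (-1.06 ± 1.47), AT2G21580 for S25 (-0.92 ± 1.71) and AT4G34670 for S3a (-0.77 ± 0.99). S15 lies in the head and S14 and S3a on the platform beside the mRNA exit.

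Low loci were found in both the head and the body of the subunit. Families were assigned to the head or to the body and platform from known ribosome structures in yeast, a grouping made with the results known. Of 17 loci for 9 head families 9 were lower, 3 higher and 5 not called, with a median of -0.92, and 6 had means below -2. Of 22 loci for 12 families of the body and platform 15 were lower, 4 higher and 3 not called, with a median of -1.44, and 9 had means below -2. Among all genes tested 43.5% were lower and 29.7% higher, and 7.12% had means below -2. Neither the difference between head and body nor that of either from all genes was tested.

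Paralogues of 1 protein had unlike ratios in some families. In 13 families at least 2 loci were tested, and in 6 of them the lowest and highest mean differed by more than 1, in 3 by more than 2. The median of this difference over the 13 families was 0.69. Pairs of unrelated genes were not compared. The S4 family was the widest and the only one with called means of opposite sign: AT2G17360 and AT5G07090 were lower, while AT5G58420 was the highest of all members, with arrays from -0.94 over a median of 0.68 to 2.49 (mean 0.67 ± 0.80, above 0 on 19 of 24 arrays, adjusted p = 0.000126, limma). AT2G17360 lay below AT5G58420 on 24 of 24 arrays, by 5.37 ± 1.48 on average, and the ranges of their arrays did not overlap.

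In the S3 family AT2G31610 stood at -4.26, while AT5G35530 and AT3G53870 stood at 0.03 ± 1.29 and 0.28 ± 1.01 and did not pass. AT3G53870 passed as higher when sets entered the fit as a block (adjusted p = 0.0369) but not with set as a random block (adjusted p = 0.185) or from set means (adjusted p = 0.28). AT2G31610 was below both on all 24 arrays. In the S19 family AT3G02080 lay below AT5G15520 and AT5G61170 (-0.03 ± 0.49, not called) on all 24 arrays, with means of -3.49, -1.08 and -0.03. AT5G15520 ran from -2.41 over -1.12 to 0.49. In the S23 family the means were -3.36 and -1.39. AT3G09680 ran from -5.07 over -1.35 to 1.32, and AT5G02960 was the lower on 20 of 24 arrays. In the S25 family they were -2.61 and -0.92, with AT4G39200 lower on 23 of 24 arrays. AT4G39200 ran from -6.33 over -2.48 to 0.11 and AT2G21580 from -3.77 over -1.25 to 1.59, so their ranges overlapped. In the S14 family AT3G52580 stood at -1.34 and AT2G36160 at -0.15 ± 1.64, which did not pass. The gap between these 2 differed by dye orientation. Their means were -1.93 and -1.58 with decapped mRNA in Cy3, and -0.74 and 1.29 with it in Cy5.

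Other families held close values. The S9 loci differed by 0.14, the S24 loci by 0.16, the S2 loci by 0.06 and the S10 loci by 0.26. The S17 loci AT3G10610, AT2G04390 and AT2G05220 lay within 0.29 of each other and the S7 loci within 0.69. Within a dye orientation these S17 loci were further apart. With decapped mRNA in Cy3 their means were 0.31, -0.65 and -0.90, and in Cy5 they were 0.05, 1.19 and 1.83. In the S3a family AT4G34670 was lower and AT3G04840 (-0.12 ± 1.45) did not pass, a difference of 0.65. A close mean did not mean that 2 loci followed each other: the S9 loci differed on single arrays by an SD of 3.07, with AT5G15200 the lower on 12 of 24. Of 23 pairs of loci within families 5 had the same order on all 24 arrays. Probe sequences are not among the files used here, so which transcripts of a family each probe can bind is unknown, and signal from near-identical paralogues cannot be told apart.

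**Figure D2:**
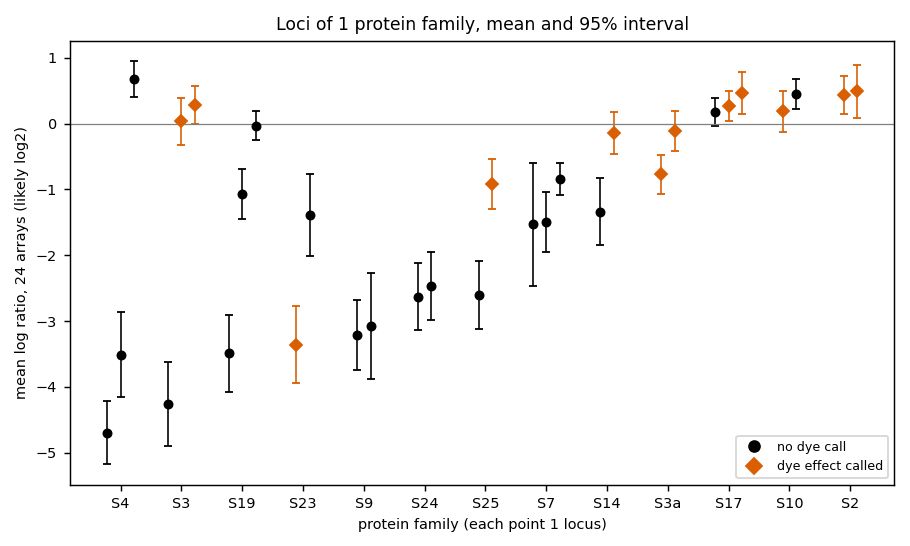
Mean log ratio over 24 arrays (y axis, likely log2) with its 95% interval from limma for each locus of the 13 protein families (x axis) with at least 2 tested loci; orange diamonds mark loci with a called dye effect. The S4, S3 and S19 loci are spread over 5.37, 4.53 and 3.46 log units, while the S2, S9, S24, S10 and S17 loci lie close together.

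The dye orientation of an array changed the ratio of many members. A dye effect passed the threshold in 14 of the 39 members (35.9%) but in 0.698% of all genes (74 genes; limma). All 14 had a higher ratio with decapped mRNA in Cy5 than in Cy3, by 1.27 to 2.89. Over all 39 members the estimate was above 0 in 33, with a median of 1.13, while for all genes it was above 0 in 50.3% with a median of 0.00. Genes of both ribosomal subunits together made up 34 of the 74 genes with a dye effect. With set number as a block 17 members had one, the additional ones being AT2G31610 (adjusted p = 0.0492), AT5G15200 (0.00436) and AT4G39200 (0.0216). Without set 2 there were 6 and without set 4 there were 5. The 0.698% belongs to the main fit alone, and the share of all genes in these 3 other fits was not counted.

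Calls of a dye effect were most frequent among the members near 0. Of the 15 loci with means above -0.5, 10 had a called effect, and of the 15 below -2 only AT5G18380 and AT5G02960 had one. Estimates for most of the low loci were less precise, so these counts do not show that low loci lack a dye effect. AT5G15200 and AT4G39200 were not called, at 1.95 ± 0.51 and 1.89 ± 0.50 (SE). AT1G58380 was called at 1.27 ± 0.28. Other low loci had small estimates, such as AT1G34030 at 0.07 ± 0.33. For AT2G36160, an S14 locus, arrays with decapped mRNA in Cy3 ran from -3.28 to -0.76 (mean -1.58 ± 0.72, n = 12) and those in Cy5 from -0.21 to 2.13 (mean 1.29 ± 0.80, n = 12). The groups did not overlap, and the difference was 2.87 ± 0.31 (SE, adjusted p = 1.07e-05, limma). For AT2G05220, an S17 locus, they ran from -2.06 to 0.54 (mean -0.90 ± 0.76) and from 0.77 to 3.14 (mean 1.83 ± 0.84). For AT2G41840, an S2 locus, they ran from -2.57 to 0.21 and from 0.30 to 3.61. AT3G04840, an S3a locus, and AT2G04390, an S17 locus, split at or near 0 in the same way, with means of -1.36 and 1.12, and of -0.65 and 1.19. In 5 members, among them AT2G36160, AT2G05220, AT2G04390 and AT2G41840, the arrays of the 2 orientations did not overlap at all, which was so with Cy5 above Cy3 for 22 of all 10607 genes. The fifth was AT3G04840.

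**Figure D3:**
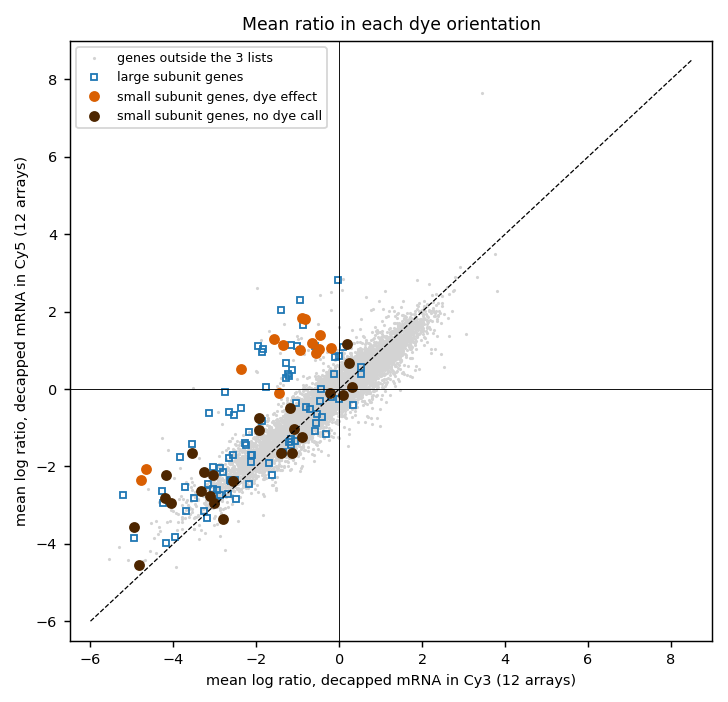
Mean log ratio over the 12 arrays with decapped mRNA in Cy3 (x axis) against that over the 12 arrays with it in Cy5 (y axis) for genes outside the lists (grey), large subunit genes (blue squares) and the 39 small subunit genes (orange with a called dye effect, brown without). The dashed line marks equal means, and 11 of the 14 orange points have a mean below 0 in Cy3 and above 0 in Cy5.

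Most lower calls, and none of the higher calls, passed in both orientations. On the 12 arrays with decapped mRNA in Cy3, 30 members were lower (36.9% of all genes) and 0 higher (22.5% of all genes). On the 12 with it in Cy5, 21 were lower (35.1% of all genes) and 12 higher (22.9% of all genes). These fits were added after the data were seen. In both orientations 19 members were lower, and 17 of these had no called dye effect. Another 8 were lower in Cy3 and higher in Cy5. AT4G25740, an S10 locus with a mean of 0.45 ± 0.58, and AT5G58420 were the members called higher without a called dye effect. AT4G25740 had means of 0.24 ± 0.31 in Cy3 and 0.66 ± 0.71 in Cy5, and AT5G58420 of 0.19 ± 0.56 and 1.16 ± 0.71. In each case the Cy5 arrays alone passed. The 5 remaining higher members were AT2G41840 (0.49 ± 1.62), AT2G05220 (0.46 ± 1.60), AT5G59850 for S15a (0.46 ± 1.24), AT1G58380 for S2, also called XW6 (0.43 ± 0.90), and AT2G04390 (0.27 ± 1.05). All 5 had a called dye effect and a mean below 0 on the Cy3 arrays. How the dye effect bears on their calls was not tested.

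The count of higher members also depended on how sets were treated. It was 2 from set means (AT5G59850 and AT5G58420), 2 with set as a random block (AT4G25740 and AT5G58420), 3 without the dye term and 3 without set 4. The count of lower members was 23 or 24 in each of these.

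Of the 8 members that were not called, 5 had a dye effect: AT2G36160, AT3G04840, AT5G35530, AT3G53870 and AT5G52650, an S10 locus at 0.19 ± 1.06. The other 3, AT5G59240 for S8 (-0.16 ± 0.54), AT5G61170 for S19 (-0.03 ± 0.49) and AT3G10610 for S17 (0.18 ± 0.44), lay close to 0 in both orientations. Their arrays stayed between -0.996 and 1.21. The signs of AT5G59240, AT2G36160, AT3G04840 and AT5G61170 turned when each array was centred on its median, which moves all genes up by about the 0.16 that the median gene lies below 0.

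Of the 24 members lower over all days, 14 were called lower on each single day, 9 on some days and AT5G16130 on 0. AT5G09510 had a mean of 0.20 on day 2, the only day mean above 0 among the 24. The members called lower numbered 18, 22, 15, 19, 15 and 20 on days 0 to 5, against 27.7%, 22.2%, 19.7%, 27.1%, 23.8% and 20.8% of all genes (limma). The members called higher numbered 1, 0, 2, 0, 4 and 0, against 11.6%, 13.7%, 14%, 12.3%, 14.1% and 18.3% of all genes. Being lower on each of the 6 days was shared by 14.5% of all genes, and 0 members (7.86% of all genes) were higher on each. These calls take the spread from all 24 arrays. Fitted on the 4 arrays of each day alone, 15, 0, 0, 0, 16 and 21 members were lower (limma). Of all genes 11.7%, 21.5% and 28.5% were lower on days 0, 4 and 5, and on days 1, 2 and 3 that fit called 0 of all 10607. At an unadjusted p under 0.05 it had 16, 15 and 20 members lower on those 3 days. The share of all genes at that unadjusted threshold was not counted. AT2G17360 stood at -4.88 ± 0.90 (SD, n = 4), -5.02 ± 1.74, -4.66 ± 0.88, -4.58 ± 1.60, -4.66 ± 0.88 and -4.39 ± 0.68 on days 0 to 5. AT4G30800 stood at -3.09 ± 0.39, -2.90 ± 0.93, -2.81 ± 0.47, -2.79 ± 0.91, -3.10 ± 0.48 and -2.89 ± 0.82. Neither locus moved between days by more than its spread within a day. Without the set 4 array of a day, 13 members in place of 22 were lower on day 1 and 13 in place of 20 on day 5. Without the set 1 array of day 1 it was 14, and without all arrays of set 4 it was 11 in place of 19 on day 3. With set number as a block 2 members were higher on day 0, AT4G25740 and AT2G05220 (adjusted p = 0.0469). The block also added single-day lower calls for AT5G15520 on days 2 and 4 and AT3G02560 on days 3 and 4. It added further ones for AT1G48830 on day 2, AT4G34670 on day 3 and AT5G09510 on day 5. A block takes differences between sets out of the error. The calls that it added, higher or lower, thus do not measure the spread between sets.

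The few higher calls on single days fell on days 0, 2 and 4. AT4G25740 was higher on those 3 days, at 0.75 ± 0.75, 0.76 ± 0.54 and 0.77 ± 0.76, and stood at 0.10 ± 0.42, 0.16 ± 0.28 and 0.14 ± 0.31 on days 1, 3 and 5. AT5G58420 was higher on days 2 and 4, and AT2G05220 and AT5G59850 on day 4. AT5G59850 lost its call on day 4 with set number as a block (adjusted p = 0.0532). Of the 39 members, 36 had a higher mean over days 0, 2 and 4 than over days 1, 3 and 5, by a median of 0.36, while 41.2% of all genes did, with a median of -0.05.

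That alternation was not shared by the sets. In sets 1 and 2, which had decapped mRNA in Cy3 on days 0, 2 and 4, only 8 of 39 members were higher on those days, with a median difference of -0.81. In sets 3 and 4, which had it in Cy5 on those days, 37 were, with a median difference of 1.34. Cy5 minus Cy3 within a set had a median over members of 0.89 in set 1, 0.73 in set 2, 0.85 in set 3 and 2.29 in set 4. Within a set the dye and the alternation of days are the same split, so a dye effect that differs between sets and a change between even and odd days cannot be told apart.

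**Figure D4:**
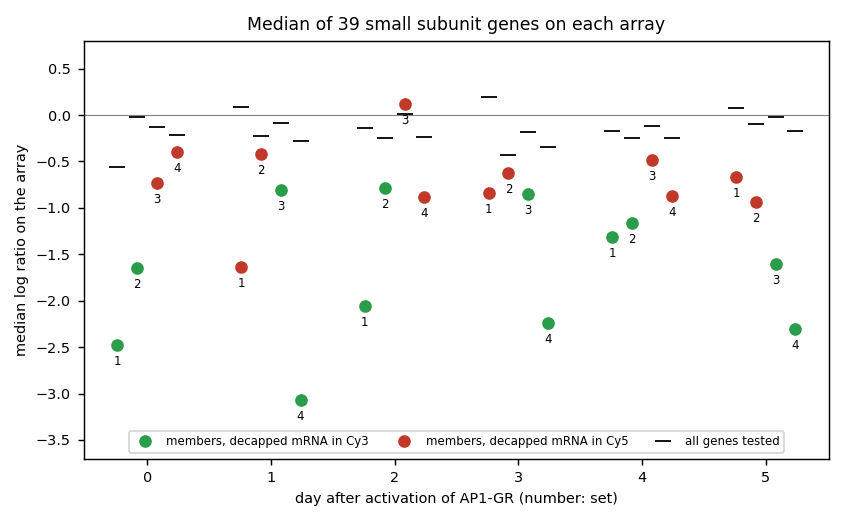
Median log ratio (y axis) of the 39 small subunit genes on each array by day (x axis), green for decapped mRNA in Cy3 and red for Cy5, with the set number under each point and a black dash for the median of all genes tested. The members' median is below that of all genes on 23 of 24 arrays, and the lowest value, -3.07, is that of set 4 on day 1.

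The median of the members was below that of all genes on 23 of 24 arrays. It ran from -3.07 to -0.78 on arrays with decapped mRNA in Cy3 and from -1.64 to 0.12 on those with it in Cy5. The lowest median was that of day 1, set 4, where all 39 members were below 0 and 19 had their lowest value. The highest was that of day 2, set 3, where 18 were below 0. The arrays of set 1 on days 1, 2 and 3 correlated less with the other arrays over all genes (median r of 0.48, 0.38 and 0.39) than any of the other arrays (0.59 to 0.74). Without set 1 the members numbered 24 lower and 5 higher, with a median of -0.83.

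No member changed past the threshold as flowers formed. In each of the 5 differences from day 0, in the F test over days and in the slope, 0 of 39 members passed (0% of all genes in each, limma). At an unadjusted p under 0.05 there were also 0 members in each, and among all genes 1.81% to 4.78% passed in the differences, 1.34% in the F test and 2.48% in the slope. At such shares few or none of 39 genes would be counted. These differences share the day 0 arrays. The smallest unadjusted p among members was 0.0581, for AT3G02560 on day 2 (0.82 ± 0.41, SE, adjusted p = 1.00). The smallest for a slope was 0.0863, for AT1G34030 (0.16 ± 0.09 per day, SE). These fits, and the SEs and half-width below, do not pair arrays by set. With set number as a block, 0 members had an F test p under 0.05 (lowest 0.0774, limma). Day 5 minus day 0 was 0.49 ± 0.80 (SE) for AT2G17360, 0.20 ± 0.48 for AT4G30800, 0.55 ± 0.58 for AT1G34030 and 0.04 ± 0.46 for AT5G58420 (adjusted p = 0.999 for each). The median 95% half-width of that difference was 1.33 for members and 1.02 for all genes. In simulated data with 4 arrays a day a difference of 2 passed the adjusted threshold in 55.5% of changed genes and one of 3 in 83%. Changes well beyond the half-width of 1.33 could thus be missed. The simulation covered 10607 genes with independent arrays, not the members alone. Members had a larger median SD (1.29 against 0.69 for all genes), so these shares may be too high for them.

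Large subunit genes gave values of the same kind. Of 137 listed loci 84 were tested, and 64 were lower (76.2%), 7 higher and 13 not called, with a median of -1.46. Among all genes 43.5% were lower and 29.7% higher. A mean below -2 was found for 31 of the 84 loci, against 7.12% of all genes. A dye effect was found for 20 (23.8%), against 0.698% of all genes. AT5G48760 and AT3G24830, both for L13a, stood at -4.40 ± 0.21 (SE) and -3.98 ± 0.35, and AT5G60670 for L12 at -4.08 ± 0.30. The difference between the subunits was not tested. Of 26 listed translation factor loci only 2 were tested, and both were higher, as were 29.7% of all genes. They were AT5G60390, a locus of elongation factor eEF1A, at 1.48 ± 2.58 (SD) and AT4G20980, of an initiation factor eIF3 subunit, at 1.27 ± 0.60. A dye effect was called for 1 of these 2, and AT5G60390 had a mean of -0.79 on the Cy3 arrays and 3.75 on the Cy5 arrays.

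**Figure D5:**
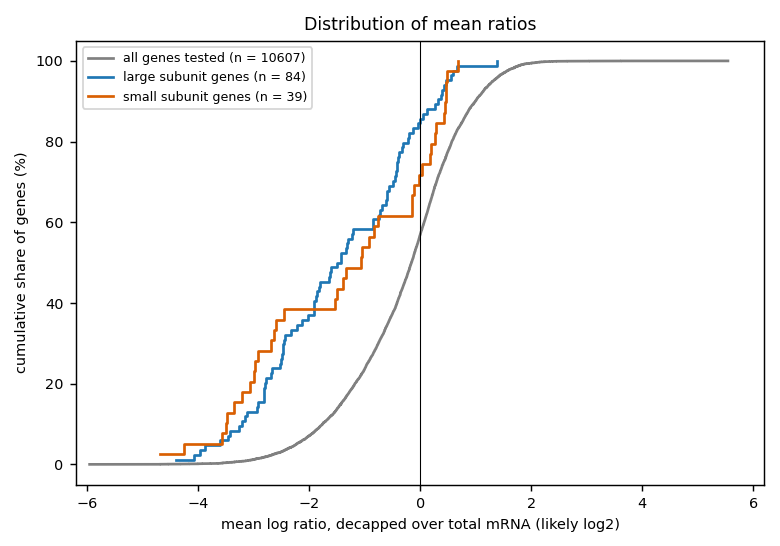
Cumulative share of genes (y axis, %) by mean log ratio over 24 arrays (x axis, likely log2) for the 39 small subunit genes, 84 large subunit genes and all 10607 genes tested. The medians are -1.08, -1.46 and -0.16, and the flat step of the small subunit curve is the gap between -2.46 and -1.53.

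The members are short genes, as far as the gene table for TAIR10.1 gives their span. Their spans ran from 1093 to 2263 bp, with a median of 1642 bp against 2180 bp for all genes. The 4320 other genes in that range had a median ratio of -0.34, with 50.3% lower and 22.5% higher. Across the 39 members Spearman's rho of span and mean ratio was 0.04, as a description, and those below -2 had a median span of 1591 bp against 1678.5 bp for the rest.

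The 2 loci with a probe that were not tested had values on some days. AT3G57490, an S2 locus, had 0.07 ± 0.13, 0.43 ± 0.50, 0.44 ± 0.46 and 0.01 ± 0.08 (SD, n = 4) on days 1, 3, 4 and 5. AT3G11510, an S14 locus, had 0.40 ± 0.46 and 0.59 ± 1.09 on days 3 and 4. Each of these means lay within 1 SD of 0.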

How the data were processed

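The deposited table held ratios of the 2 channels on a log scale, read here as log2 (26102 probes, 24 arrays, values from -10.53 to 10.07). The authors' background correction, normalization, log base and direction are nowhere stated in the sources read. Dyes, days and sets were taken from the labels. On each day the 1 set of values shared by the largest number of probes (770 to 4424) was read as no measurement. Its values were equal in size and of opposite sign in the dye orientations. Counting any repeated set of values, 3831 to 5396 probes a day held one, and the other repeats were kept in the main fit. All 39 members were left when every repeat was dropped. The platform annotation named 13960 probes, matched through gene IDs to the RefSeq table for TAIR10.1; several probes of a gene were averaged, and genes with under 2 values on any day were left out. Ratios were fitted with limma 3.58.1 in R 4.3.3 over 10607 genes, with day means plus a dye term. Tables were made with pandas 2.3.3. Sets were collected over all days per the series' design text, so set numbers pair arrays. Deviations from day means correlated within sets with a median r of 0.28 (lowest -0.19) over 60 pairs, and -0.09 between sets. The 24 arrays were otherwise taken as independent, and correlations of all array pairs ran from 0.23 to 0.87. Alternatives covered dye term, centring, scaling, set as block, set means, array weights, the filter on shared values, single probes and arrays left out. In simulated data (200 of 10607 genes changed, independent arrays) 91% of genes given a mean of 1 passed, 86.5% of those given a dye difference of 2, and 55.5% of those given a day 5 minus day 0 difference of 2. The members and lists were chosen with earlier results of these data known. All members are named. Lowest, median and highest arrays are given for the 10 called members of largest absolute mean and for paralogues whose called means differ by more than 1 or in sign. Precision is limited by the number of arrays.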

Additional observations from a re-analysis of the deposited data

Results flagged for a closer look

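In 13 of 240 groups of 4 arrays (each member and the members' median on each day) 1 array lay far from the other 3; chance gives about 1 in 20. The median of the members on day 3 was -2.24 in set 4, against -0.85 to -0.62 in the other sets. Set 2 on day 0 held 3 such values: AT5G39850 stood at 0.46 against -3.39 to -3.01, AT5G16130 at 1.97 against -3.43 to -3.12, and AT5G61170 at -0.26 against 0.28 to 0.31. Set 1 held 3: AT2G31610 at -6.61 on day 0 against -3.76 to -3.34, and AT3G02560 at -2.68 on day 0 against -1.07 to -0.76 and at -1.85 on day 2 against -0.20 to 0.04. Set 4 on day 5 held AT3G04920 at -3.97 against -2.18 to -1.81 and AT1G48830 at -2.65 against -1.50 to -1.35. AT1G34030 on day 4 stood at -1.94 in set 2 against -2.88 to -2.78, and AT4G25740 on day 3 at 0.57 in set 4 against -0.03 to 0.05. Set 3 held AT5G59240 at 0.51 on day 2 against -0.31 to -0.19 and AT3G10610 at 0.25 on day 1 against -0.09 to -0.04.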

How the results depend on the processing

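The count of members lower over all days was 23 or 24 under each alternative on all arrays and with any set or array left out, 30 on Cy3 arrays alone and 21 on Cy5 arrays alone. The median of the members was -1.08, kept its sign, and ran from -1.37 to -0.83 with sets or arrays left out. The cause of the following changes was not tested, unless fewer arrays enter. Members higher over all days, 7, became 3 without the dye term, 2 from set means, 2 with set as a random block, and 0 and 12 on Cy3 and Cy5 arrays alone (added after seeing the data); leaving out sets or arrays gave 3 to 8. Members with a dye effect, 14, numbered 5 to 16 with sets or arrays left out. On day 0 the higher members, 1, became 5 with array weights, 4 with scaling, 2 with centring and 2 with the replicate block (paired by set). On day 4 the higher members, 4, became 1 without the dye term, 2 with set as a random block and 2 with shared values kept. Scaling gave 1 higher on day 3 and 13 lower on day 5, and array weights 1 higher on day 5. Fitting each day's 4 arrays alone gave 0 higher on days 0 and 2, 1 higher on day 4, and 0 lower on days 1, 2 and 3. With sets or arrays left out, 0 to 4 members were higher on day 0, 0 to 3 on day 2 and 0 to 1 on day 3. On day 4 it was 0 to 4. The lower members in those fits numbered 15 to 19 on day 0, 13 to 22 on day 1 and 10 to 16 on day 2. On days 3, 4 and 5 they numbered 11 to 21, 12 to 16 and 12 to 20. Under the other alternatives 13 to 19 were lower on day 0 and 12 to 17 on day 4. Members that were not called changed sign as follows: with centring AT5G59240 stood at 0.00206, AT2G36160 at 0.00960, AT3G04840 at 0.0404 and AT5G61170 at 0.13; with scaling AT3G04840 at 0.0800 and AT5G61170 at 0.0466; with array weights AT5G61170 at 0.0476. With sets or arrays left out AT2G36160 ranged from -0.25 to 0.0121, AT5G61170 from -0.12 to 0.104, AT5G35530 from -0.112 to 0.24 and AT5G52650 from -0.00984 to 0.31. The set block changed 1 call of a mean over all days, that of AT3G53870 (adjusted p = 0.0369), and the calls by day and dye given above. Signal over background is unknown.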
